A study of Mus musculus with 8 samples.

Results

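Enteroendocrine peptide hormone transcripts were compared between crypts of the small intestine (SI) and the colon (COL). The 10 genes *Gcg*, *Cck*, *Gip*, *Sct*, *Pyy*, *Insl5*, *Sst*, *Nts*, *Tac1* and *Ghrl* were chosen by name as hormones of these cells from the 45706 genes in both count tables. RNA-Seq had been performed on crypts, the glands that house the stem and progenitor cells of the gut epithelium, freshly released with EDTA from wild type mice of the strain C57BL/6N. Each of 4 donors, 2 female and 2 male, gave 1 SI and 1 COL library, so that 4 libraries of each tissue were compared. The donors carry the numbers 1, 2, 3 and 5 in the labels, and the libraries are named here by tissue and replicate, from SI1 to SI4 and from COL1 to COL4. The ages of the mice are not given in the sources used here. The protocol for organoid cultures takes the proximal SI and scrapes off its villi, and it exposes the colon to EDTA for longer than the SI. Whether the crypts sequenced came from the same segment is not stated.

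Enteroendocrine cells are scattered hormone-producing cells of the gut epithelium that sense luminal nutrients and release peptides from granules. Most peptides are cut from a longer prohormone, and one cell often makes several of them. In textbook maps of the mouse gut, *Gip*, *Cck*, *Sct* and *Ghrl* belong to the proximal SI, *Nts* to the distal SI, and *Pyy* and *Insl5* to the distal gut, while *Sst* is made along its whole length. Levels are given as CPM, the counts scaled to a common library size after TMM normalization in edgeR, and SE marks the standard error of a log2 fold change.

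The opposite pattern of the L-cell genes *Gcg* and *Pyy* and of the SI genes *Gip* and *Ghrl* is the main result below. *Cck* was also higher in SI, but narrowly (adjusted p = 0.0407 by edgeR's test), and its call was lost in 8 of 19 alternatives. The 100 bases just before the start of these 5 genes are shown, 5′ to 3′ on the strand of the gene. Their RefSeq starts (GRCm38.p6) lie within 31 bases of the GENCODE gene start. Capitals mark TATAA within 40 bases of the start, or the E-box CATCTG on either strand (CAGATG on the other), a sequence that NeuroD1, a transcription factor of enteroendocrine cells, can bind.
*Gcg* (chr2:62483654-62483753, minus strand): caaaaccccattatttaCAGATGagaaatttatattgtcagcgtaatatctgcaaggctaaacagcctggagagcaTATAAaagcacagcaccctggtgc
*Pyy* (chr11:102107833-102107932, minus strand): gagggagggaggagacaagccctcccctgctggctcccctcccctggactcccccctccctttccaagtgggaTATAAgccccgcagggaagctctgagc
*Gip* (chr11:96024445-96024544, plus strand): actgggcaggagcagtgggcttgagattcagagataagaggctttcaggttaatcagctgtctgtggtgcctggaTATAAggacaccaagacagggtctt
*Cck* (chr9:121495695-121495794, minus strand): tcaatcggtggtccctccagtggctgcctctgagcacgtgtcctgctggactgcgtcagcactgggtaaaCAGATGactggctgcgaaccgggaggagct
*Ghrl* (chr6:113719912-113720011, minus strand): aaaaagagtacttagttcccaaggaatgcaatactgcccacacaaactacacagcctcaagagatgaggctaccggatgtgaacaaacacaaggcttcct

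TATAA stood within 40 bases before the start in 4 of the 10 hormone genes, namely *Gcg*, *Pyy*, *Gip* and *Sct*, and in 4.23% of the 32851 mouse promoter windows of the same length. The RefSeq starts of *Insl5*, *Sst*, *Nts* and *Tac1* lie 114, 114, 68 and 182 bases from the GENCODE start. For these genes, a lack of TATAA within 40 bases depends on the start chosen. CATCTG was found on either strand in the windows (250 bases before to 50 after the start) of 5 hormone genes (*Gcg*, *Cck*, *Sct*, *Insl5* and *Tac1*) and in 17.15% of all windows. The cAMP response element TGACGTCA was found in the *Sst* window, 48 bases before the start, and in 1.79% of all windows. None of the 10 windows held CAATAAA, a Cdx-type sequence present in 4.6% of all windows. TATAA was shared by genes high in COL (*Gcg*, *Pyy*) and a gene high in SI (*Gip*). The motifs were picked with the sequences in view, and a match describes letters in the window, not a bound site.

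Library totals ranged from 15969428 to 32908060 counts. The mitochondrial share of the counts was low in SI1, SI4, COL3 and COL4 (4.83% to 7.35%) and high in the other 4 libraries (22.7% to 50.8%). In SI, the low-share libraries were both from females and the high-share ones both from males, so share and sex cannot be told apart there, while in COL each level held 1 female and 1 male. Epithelial markers were high in the 8 libraries (summed CPM of 7 genes from 4550 to 14300). Markers of crypt base stem cells were lowest in SI1, with 0.634 CPM of *Lgr5* against 5.82 to 11.2 CPM in SI2 to SI4. Paneth cell markers (6 genes) summed to 564 to 3970 CPM in SI and 17.9 to 83.0 CPM in COL. Markers of villus enterocytes were abundant in SI, with a summed level of 33300 to 96600 CPM against 19.7 to 128 CPM in COL. The lists for enteric neurons (8 genes, summed 2.51 to 4.53 CPM over the 8 libraries, *Hand2* at 0 throughout), glia (4 genes, 0 to 3.54 CPM), pancreas (9 genes, 0 to 2.42 CPM) and stomach (7 genes, 0.264 to 2.38 CPM) stayed near 0 in both tissues. Stroma and muscle markers (7 genes) summed to 1.10 to 13.9 CPM. Leukocyte markers (7 genes) summed to 67.4 and 56.3 CPM in SI1 and SI4 and to 14.3 to 38.4 CPM in the other libraries.

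Of the 10 hormone transcripts, 7 differed between the tissues. In the quasi-likelihood test of edgeR, adjusted by Benjamini-Hochberg over 14491 genes, *Gip*, *Ghrl*, *Cck* and *Sst* were higher in SI, and *Gcg*, *Pyy* and *Insl5* were higher in COL, with adjusted p-values from 5.43e-06 to 0.0407. *Sct*, *Nts* and *Tac1* were not past the threshold of 0.05. All 10 genes passed the filter on low counts. *Gip* passed through its SI counts alone and *Insl5* through its COL counts alone, so each had to be high there, and the numbers of genes called include both. These 7 of 10 stand beside 28.4% of genes tested, the 4 higher in SI beside 15.5% and the 3 higher in COL beside 12.9%. The median log2 fold change of the 10 was 1.08, against -0.09 over the genes tested. Scaling by library size alone, which moved the median gene to -0.82, gave 2 hormone genes higher in SI (7.69% of genes tested) and 3 in COL (33.0%). In whole crypt preparations, fewer cells of a type and less RNA per cell cannot be told apart. The level of villus enterocyte markers also differed between the tissues, so its part cannot be told apart from that of tissue.

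**Figure D1:**
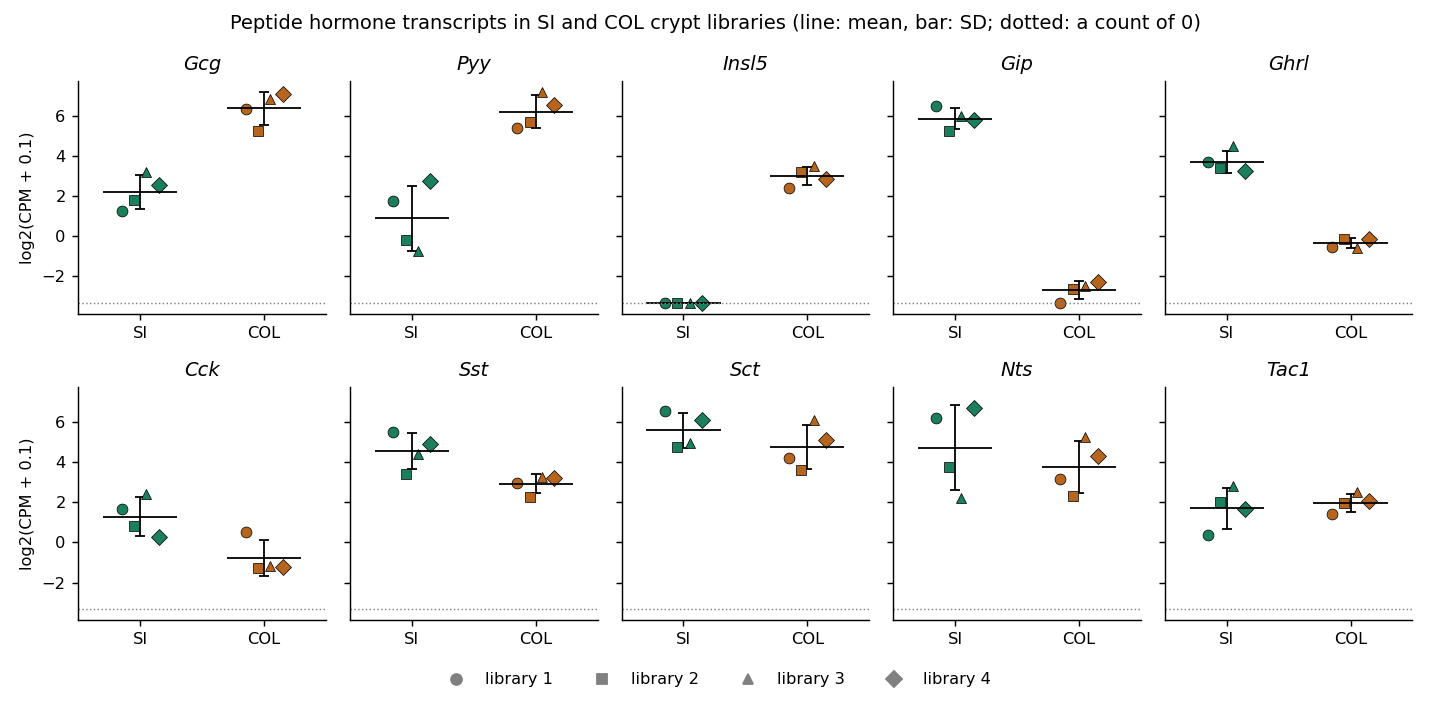
Each panel shows one hormone gene, with log2(CPM + 0.1) on the vertical axis and the 4 SI (green) and 4 COL (brown) libraries as points whose shape gives the replicate; lines are means, bars are SD and the dotted line is a count of 0. *Gcg*, *Pyy* and *Insl5* lay higher in every COL library, *Gip*, *Ghrl* and *Sst* in every SI library, and *Cck*, *Sct*, *Nts* and *Tac1* overlapped.

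*Gcg* (ENSMUSG00000000394, chromosome 2, 62474530 to 62483650) encodes proglucagon, from which L cells cut the incretin GLP-1 and the growth-promoting peptide GLP-2. It had 2.31, 3.38, 9.07 and 5.72 CPM in SI1 to SI4 and 80.8, 37.4, 113 and 136 CPM in COL1 to COL4. The groups did not overlap, and the mean was 17.9 times higher in COL. The log2 fold change of SI over COL was -4.16 (SE 0.53, adjusted p = 0.000159 by edgeR's test), and *Gcg* was lower in SI in each of the 4 mice.

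*Pyy* (ENSMUSG00000017311, chromosome 11, 102106676 to 102107832) encodes peptide YY, which slows gut transit and curbs appetite and is released from the same L cells. It had 3.22, 0.785, 0.507 and 6.5 CPM in SI1 to SI4 and 41.6, 51.1, 144 and 91.9 CPM in COL1 to COL4. Every COL library lay above every SI library, with a log2 fold change of -4.89 (SE 0.78, adjusted p = 0.000753 by edgeR's test). The SI values spread widely, and SI4 had more than SI2 and SI3 together. Its neighbour *Ppy*, the gene of the related pancreatic polypeptide, lies 5356 bases away on the same strand and showed the same direction, with 2 counts in SI1, 0 in SI2 to SI4 and 58, 51, 287 and 353 counts in COL1 to COL4. No 50-base stretch of the longest *Pyy* transcript occurs in a transcript of another gene, *Ppy* included.

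*Insl5* (ENSMUSG00000066090, chromosome 4, 103017872 to 103026842) encodes an insulin-like peptide of colonic L cells that acts through the receptor RXFP4. It had no count in the 4 SI libraries and 179, 146, 415 and 343 counts in COL1 to COL4, or 5.25, 9.07, 11.1 and 7.18 CPM. Taking 3 counts over the SI group as the limit that 0 counts allow, pooled *Insl5* was at least 214-fold higher in COL (adjusted p = 4.93e-05 by edgeR's test). Among the 10 genes it was the one with an empty tissue. *Insl5* passed the filter through its COL counts alone and so had to be high there.

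*Gip* (ENSMUSG00000014351, chromosome 11, 96024545 to 96030831) encodes the incretin of K cells, a relative of glucagon and secretin. It had 87.5, 37.0, 62.0 and 54.1 CPM in SI1 to SI4, whereas COL1 to COL4 held 0, 1, 3 and 5 counts. Pooled over libraries, *Gip* was 928 times higher in SI (95% exact Clopper-Pearson interval of the counts, 488 to 2030, covering counting error only). The log2 fold change was 9.75 (SE 0.59, adjusted p = 5.43e-06 by edgeR's test). The SI libraries differed from each other by far less than from COL. *Gip* passed the filter through its SI counts alone and so had to be high there.

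*Ghrl* (ENSMUSG00000064177, chromosome 6, 113716119 to 113719880) encodes ghrelin, the hunger hormone best known from the stomach. It had 12.8, 10.5, 22.1 and 9.34 CPM in SI1 to SI4 and 0.587, 0.808, 0.562 and 0.817 CPM in COL1 to COL4. The mean was 19.7 times higher in SI, with a log2 fold change of 4.30 (SE 0.41, adjusted p = 2.96e-05 by edgeR's test). The groups lay far apart, and the stomach markers were at most 2.38 CPM in sum in any library. *Ghrl* overlaps exons of Gm26982 and Gm44033, genes on the opposite strand, and 8.6% of its 50-base stretches are shared with Gm44033. Whether the counting used the strand is not given in the sources used here.

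*Cck* (ENSMUSG00000032532, chromosome 9, 121489824 to 121495694) encodes cholecystokinin, which empties the gallbladder and stimulates pancreatic enzyme release. It was scarce, with 24 to 103 counts in SI and 5 to 46 in COL libraries. The values were 3.08, 1.63, 5.22 and 1.10 CPM in SI1 to SI4 and 1.35, 0.311, 0.348 and 0.335 CPM in COL1 to COL4. COL1 lay above SI4, so the ranges overlapped, although *Cck* was higher in SI in all 4 mice. Its log2 fold change of 2.22 (SE 0.73) passed narrowly (adjusted p = 0.0407, edgeR). The call was lost when SI1, SI3, COL2, COL3 or COL4 was left out, with adjusted p-values of 0.0761, 0.13, 0.078, 0.0964 and 0.0982, and among the 4 libraries of high mitochondrial share alone (adjusted p = 0.267). It was also lost with library-size scaling (log2 fold change 1.41, adjusted p = 0.145) and in the edgeR test against a log2 change of 1 (adjusted p = 0.141). Without COL1 the log2 fold change was 3.04.

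*Sst* (ENSMUSG00000004366, chromosome 16, 23889573 to 23890958) encodes somatostatin, the inhibitory peptide of D cells. It had 44.5, 10.4, 21.2 and 29.1 CPM in SI1 to SI4 and 7.63, 4.72, 9.47 and 9.21 CPM in COL1 to COL4. SI2 lay just above the highest COL library, and the groups did not overlap. The log2 fold change was 1.76 (SE 0.42, adjusted p = 0.0091 by edgeR's test). Scaling by library size alone ended this call, with a log2 fold change of 0.95 and an adjusted p of 0.102. So did the 4 libraries of high mitochondrial share alone, with 1.28 and 0.158. In the edgeR test against a log2 change of 1 the call was lost as well (adjusted p = 0.0858).

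For 6 of the 10 hormone genes the CPM ranges of the tissues did not overlap, as for 33.5% of the genes tested. *Gip*, *Ghrl* and *Sst* lay above in SI (17.8% of genes tested) and *Gcg*, *Pyy* and *Insl5* above in COL (15.7%). Blocking by donor mouse gave the same 7 hormone genes.

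**Figure D2:**
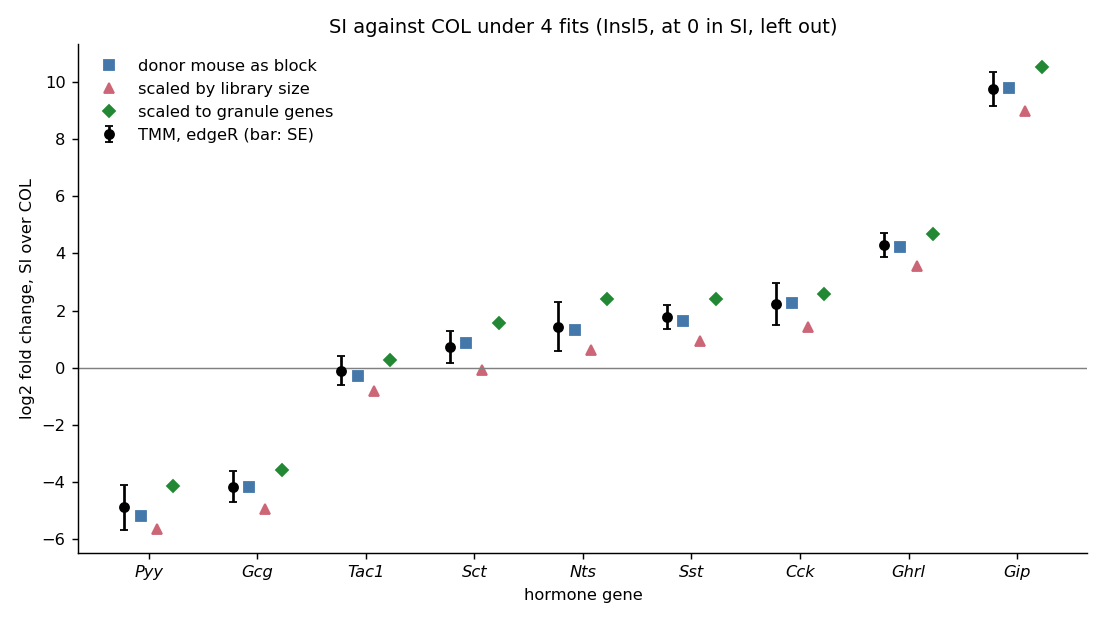
The vertical axis gives the log2 fold change of SI over COL for 9 hormone genes, with black circles and standard errors for edgeR with TMM, squares for the fit blocked by donor mouse, triangles for scaling by library size alone and diamonds for scaling to granule genes. *Gip* (9.75) and *Ghrl* (4.30) lay well above 0 and *Pyy* (-4.89) and *Gcg* (-4.16) well below it under the 4 fits, whereas *Sct* and *Tac1* crossed 0.

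*Sct* (ENSMUSG00000038580, chromosome 7, 141278330 to 141279133) encodes secretin, which stimulates bicarbonate secretion by the pancreas. It had 93.5, 26.5, 30.9 and 67.1 CPM in SI1 to SI4 and 17.9, 12.1, 68.2 and 33.7 CPM in COL1 to COL4. COL3 reached the level of SI4, and the ranges overlapped. The difference was not past the threshold (log2 fold change 0.72, SE 0.55, adjusted p = 0.36, edgeR).

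*Nts* (ENSMUSG00000019890, chromosome 10, 102481756 to 102490486) encodes neurotensin, which slows motility and aids fat uptake. It had 72.6, 13.2, 4.56 and 104 CPM in SI1 to SI4 and 8.83, 4.91, 38.0 and 19.8 CPM in COL1 to COL4. SI3 had the lowest value of all 8 libraries and SI4 the highest. The spread within SI was larger than the difference between the tissues, with a log2 fold change of 1.44 (SE 0.86, adjusted p = 0.241 by edgeR's test). Among the 4 libraries of low mitochondrial share alone *Nts* was past the threshold in edgeR (log2 fold change 1.61, adjusted p = 0.0262). Among the 4 of high share it was not (0.27, adjusted p = 0.834). Nor was it with the mitochondrial share as a covariate (0.79, adjusted p = 0.387, both by edgeR's test). In mouse 3 the order of the tissues was the reverse of that in the other mice.

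*Tac1* (ENSMUSG00000061762, chromosome 6, 7554879 to 7565834) encodes the precursor of substance P and neurokinin A, which in the gut epithelium is made by enterochromaffin cells and elsewhere by neurons. It had 1.18, 3.87, 6.79 and 3.11 CPM in SI1 to SI4 and 2.58, 3.73, 5.59 and 4.04 CPM in COL1 to COL4. The ranges overlapped throughout, and the log2 fold change was -0.10 (SE 0.52, adjusted p = 0.909 by edgeR's test). SI1 was lowest and SI3 highest. Without SI1 the log2 fold change was 0.22, on the other side of 0.

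Levels of different genes were compared per kilobase of exon. In SI, *Gip* and *Sct* led, at 87.5 ± 30.6 and 84.5 ± 49.2 CPM per kilobase (SD, n = 4), and each was the higher in 2 libraries. They were followed by *Nts* (38.9 ± 38.2), *Sst* (36.5 ± 19.9), *Ghrl* (12.7 ± 5.34), *Pyy* (4.36 ± 4.41), *Gcg* (3.43 ± 2.01), *Cck* (2.11 ± 1.41) and *Tac1* (1.10 ± 0.686), in CPM per kilobase (SD, n = 4). *Nts* stood above *Sst* in 1 of the 4 libraries, SI4, so their order by mean rests on it. Neighbours in this order overlapped in range down to *Tac1*, and *Insl5* was last, at 0. In COL, *Pyy* led at 130 ± 74.2 CPM per kilobase (SD, n = 4) and exceeded *Gcg* (61.4 ± 28.5) in all 4 libraries. *Sct* (51.1 ± 39.1), *Nts* (14.3 ± 11.9), *Insl5* (11.3 ± 3.47) and *Sst* (10.8 ± 3.03) came next. The ranges of *Tac1* (1.17 ± 0.365), *Ghrl* (0.642 ± 0.128) and *Cck* (0.449 ± 0.39) lay below that of *Sst*, and *Gip* (0.0899 ± 0.0651) was last.

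As a share of the summed hormone level per kilobase, *Gcg*, *Pyy* and *Insl5* together made up 1.61% to 4.27% in SI and 67.8% to 79.1% in COL libraries. *Gip* alone made up 23.8% to 44.1% in SI and at most 0.0604% in COL. *Sct* made up 23.4% to 35.1% in SI and 12.5% to 22.4% in COL. The summed level itself overlapped between the tissues, at 136 to 413 CPM per kilobase in SI and 150 to 472 CPM per kilobase in COL. The tissues thus differed in the make-up of their hormone transcripts, while their totals lay in the same range. With the longest transcript in place of the union of exons, the shares of the 3 genes were 1.83% to 4.91% and 70.6% to 80.7%.

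**Figure D3:**
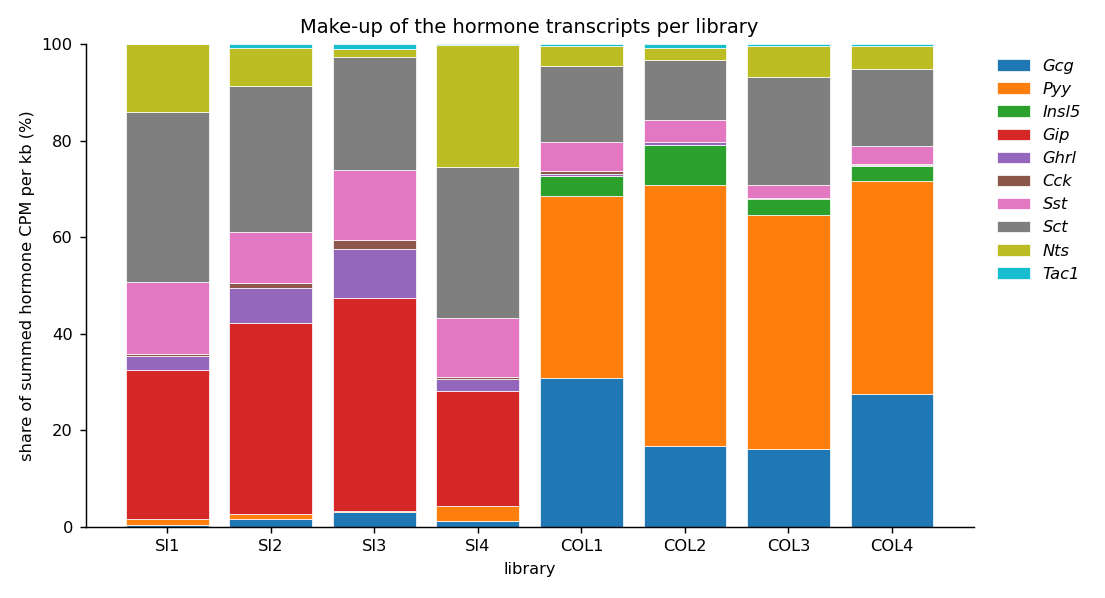
Each bar is a library and the vertical axis is the share in percent of the summed CPM per kilobase of the 10 hormone genes. *Pyy* was the leading gene in the 4 COL libraries (37.7% to 54%), *Sct* in SI1 and SI4 (35.1% and 31.5%) and *Gip* in SI2 and SI3 (39.7% and 44.1%).

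Deviations from the tissue mean of log2 CPM, taken over the 8 libraries of both tissues together, correlated at 0.96 for *Pyy* and *Nts*, 0.87 for *Sct* and *Nts*, 0.82 for *Sct* and *Sst* and 0.80 for *Sct* and *Pyy*. The other pairs among these 4 genes were lower, at 0.69 for *Sst* and *Nts* and 0.66 for *Sst* and *Pyy*, close to 0.62 for *Gip* and *Sst* and 0.59 for *Gip* and *Sct*. These are descriptions over libraries that share RNA and depth, and they carry no test. Genes outside the list correlated more closely. The nearest of 11967 genes reached 0.98 with *Pyy* (*Mboat1*), 0.988 with *Nts* (*Ptdss1*) and 0.991 with *Sct* (*Gchfr*). *Gcg*, the usual partner of *Pyy*, correlated with it at -0.01 over both tissues together, and with *Tac1* at 0.66. The 2 tissues differed here. In COL, *Gcg* and *Pyy* were both above their mean in COL3 and COL4 and both below it in COL1 and COL2. In SI, *Gcg* deviated most upward in SI3 (1.00), where *Pyy* was lowest (-1.64). *Pyy*, *Nts*, *Sct* and *Sst* were higher in the libraries of low mitochondrial share in both tissues. For *Nts*, SI1 and SI4 had 72.6 and 104 CPM against 13.2 and 4.56 CPM in SI2 and SI3, and COL3 and COL4 had 38.0 and 19.8 CPM against 8.83 and 4.91 CPM in COL1 and COL2. For *Sct*, the lowest low-share library exceeded the highest high-share library in both tissues (67.1 against 30.9 CPM in SI, 33.7 against 17.9 CPM in COL).

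Some markers of differentiated surface cells followed the same split of libraries. The villus enterocyte list (8 genes) summed to 96600 and 58900 CPM in SI1 and SI4 and to 33300 and 34500 CPM in SI2 and SI3, and for 6 of the 8 genes both low-share SI libraries lay above both high-share ones. The list for surface colonocytes (5 genes) summed to 32100 and 17200 CPM in COL3 and COL4 and to 6500 and 4690 CPM in COL1 and COL2, most of it from *Car1* (5998, 2632, 30000 and 15640 CPM in COL1 to COL4). *Car1* and *Ms4a8a* were the 2 of its 5 genes that followed the split, whereas *Aqp8* and *Slc26a3* were highest in COL2, at 541 and 467 CPM. Their part in the hormone levels was not tested. The share of all genes that follow this split was not counted, here or for the hormone genes above. Over all genes tested, libraries of like share differed least within a tissue. Their chi-square per gene was 101 and 110 in SI, where other pairs had 339 or more. In COL it was 91.7 and 289, where other pairs had 523 or more. The split is thus not particular to the hormone genes. With the mitochondrial share as a covariate, the same 7 hormone genes were called.

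**Figure D4:**
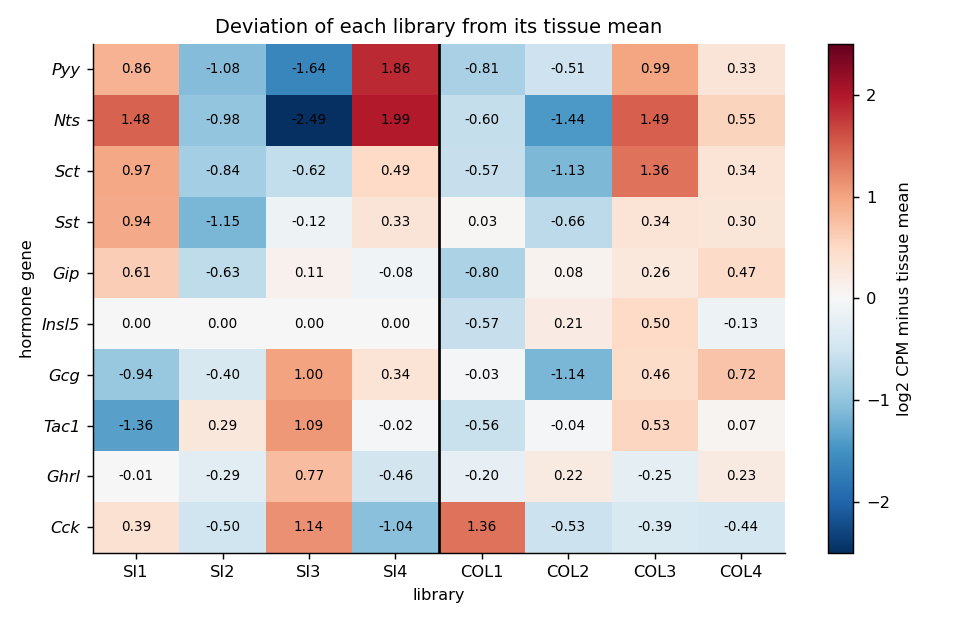
Rows are hormone genes, columns are libraries, and numbers and colours give log2 CPM minus the mean of the tissue. *Pyy* and *Nts* were above their tissue mean in SI1, SI4, COL3 and COL4 and below it in SI2, SI3, COL1 and COL2. *Gcg* followed this split in COL (from -1.14 in COL2 to 0.72 in COL4) but not in SI (from -0.94 in SI1 to 1.00 in SI3).

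The summed level of 12 genes of the hormone granule, such as the chromogranins, overlapped between the tissues, at 159 to 291 CPM in SI and 151 to 435 CPM in COL. *Chga* had 32.1 to 71.8 CPM in SI and 43.3 to 139 CPM in COL (log2 fold change -0.72, SE 0.39, adjusted p = 0.195 by edgeR's test). *Chgb* had 102 to 197 CPM in SI and 85.3 to 275 CPM in COL (adjusted p = 0.468). Of 11 granule genes tested, *Ptprn2*, a phosphatase-like protein of dense-core vesicles, was higher in COL and none was higher in SI. With library-size scaling 4 granule genes were higher in COL, beside 33.0% of genes tested in that direction (12.9% with TMM). When the counts were scaled to these granule genes in place of TMM, 6 hormone genes were higher in SI (17.3% of genes tested) and 3 in COL (7.72%). The 2 genes added were *Sct*, at a log2 ratio of 1.58 (adjusted p = 0.0407), and *Nts*, with 2.40 (adjusted p = 0.0283, both by edgeR's test under this scaling). The median gene lay at 0.23 under this scaling.

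Among 19 transcription factors of the lineage, 15 were tested, with 2 higher in COL (12.9% of genes tested) and none higher in SI (15.5%). These were *Foxa1* (0.456 to 1.42 CPM in SI, 14.1 to 26.9 CPM in COL) and *Foxa2*, forkhead factors that act in secretory and other gut cells. *Neurog3*, the factor that commits cells to the endocrine fate, had 0, 2.42, 7.25 and 2.98 CPM in SI1 to SI4 and 0.311 to 1.34 CPM in COL (adjusted p = 0.236 by edgeR's test). *Neurod1*, which acts after it, had 1.45 to 6.22 CPM in SI and 2.11 to 3.29 CPM in COL (adjusted p = 0.372).

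Of 10 prohormone-processing genes, 7 were tested, and 2 were higher in COL. *Pam*, whose enzyme adds the terminal amide that peptides such as PYY, CCK and GLP-1 carry, had 5.56 to 10.96 CPM in SI and 19.9 to 45.3 CPM in COL (log2 fold change -1.93, SE 0.33, adjusted p = 0.00128 by edgeR's test). *Pcsk1n*, an inhibitor of the convertase PC1/3, was the other. It passed the filter through its COL counts alone and so had to be high there. *Pcsk1*, which encodes that convertase, had 6.98 to 11.9 CPM in SI and 4.29 to 19.4 CPM in COL and was not past the threshold (adjusted p = 0.279). *Mboat4*, whose enzyme attaches the fatty acid that ghrelin needs for its activity, did not pass the filter and reached 26 counts at most, in SI4.

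Peptide-degrading enzymes of the cell surface were much higher in SI, with 4 of 6 tested genes called in that direction and none in the other (with library-size scaling, 4 and 2). *Dpp4*, whose product cleaves GLP-1, GIP and PYY, had 1083 to 2037 CPM in SI and 23.2 to 38.1 CPM in COL (log2 fold change 5.74, SE 0.45, adjusted p = 1.28e-05 by edgeR's test). *Mme*, *Anpep* and *Enpep* were the other 3, with log2 fold changes of 10.73, 10.02 and 7.31. These are also brush-border enzymes of enterocytes, whose markers were abundant in SI.

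Of 13 nutrient and metabolite sensors, 7 were tested. *Ffar2*, a receptor of short-chain fatty acids, had 3.14 to 7.01 CPM in SI and 45.6 to 94.0 CPM in COL (log2 fold change -3.85, SE 0.39, adjusted p = 3.88e-05 by edgeR's test). *Ffar4*, a receptor of long-chain fatty acids, and *Abcc8*, the sulphonylurea receptor, were also higher in COL, by log2 fold changes of -4.57 and -3.05. *Ffar4* passed the filter through its COL counts alone and so had to be high there. *Slc5a1*, the sodium-glucose cotransporter through which K and L cells sense glucose and which enterocytes use for uptake, was higher in SI (log2 fold change 5.63, adjusted p = 7.34e-05).

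Receptors for the hormones were sparse. Of 25 genes, 5 passed the filter, and 14 had at most 10 counts in any library, among them the GLP-1 receptor gene *Glp1r*. Of the 5, 4 were higher in COL, but *Sstr1*, *Sstr2* and *Npy1r* passed the filter through their COL counts and so had to be high there. The somatostatin receptor genes *Sstr1* and *Sstr2* had at most 1.24 and 0.101 CPM in SI against 7.52 to 38.0 and 2.42 to 2.97 CPM in COL, with log2 fold changes of -5.14 and -5.99 (adjusted p = 0.00223 and 0.000377 by edgeR's test). *Npy1r*, a receptor of the NPY and PYY family, had at most 0.665 CPM in SI and 3.46 to 9.82 CPM in COL (log2 fold change -5.06, SE 1.08, adjusted p = 0.00452). *Sort1*, which encodes the sorting receptor sortilin that also binds neurotensin, was the fourth.

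Of 21 genes for other gut peptides and for serotonin, 10 were tested, with 3 higher in SI and 1, *Ppy*, higher in COL. With the donor mouse as block these counts were 2 and 1, and with library-size scaling 2 and 3. *Ppy* passed the filter through its COL counts alone and so had to be high there. *Tph1*, which makes serotonin in enterochromaffin cells, had 7.83 to 14.1 CPM in SI and 9.57 to 27.5 CPM in COL (adjusted p = 0.236 by edgeR's test). *Ddc*, which acts in the next step and is also made by enterocytes, was higher in SI, at 238 to 472 CPM against 22.7 to 55.4 CPM (log2 fold change 3.11, adjusted p = 0.000131). The vesicular monoamine transporter genes *Slc18a1* and *Slc18a2* followed it, with log2 fold changes of 1.85 and 1.08. The counts of each list stand beside the shares of all genes tested, 15.5% toward SI and 12.9% toward COL. With library-size scaling these shares were 7.69% and 33.0%.

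**Figure D5:**
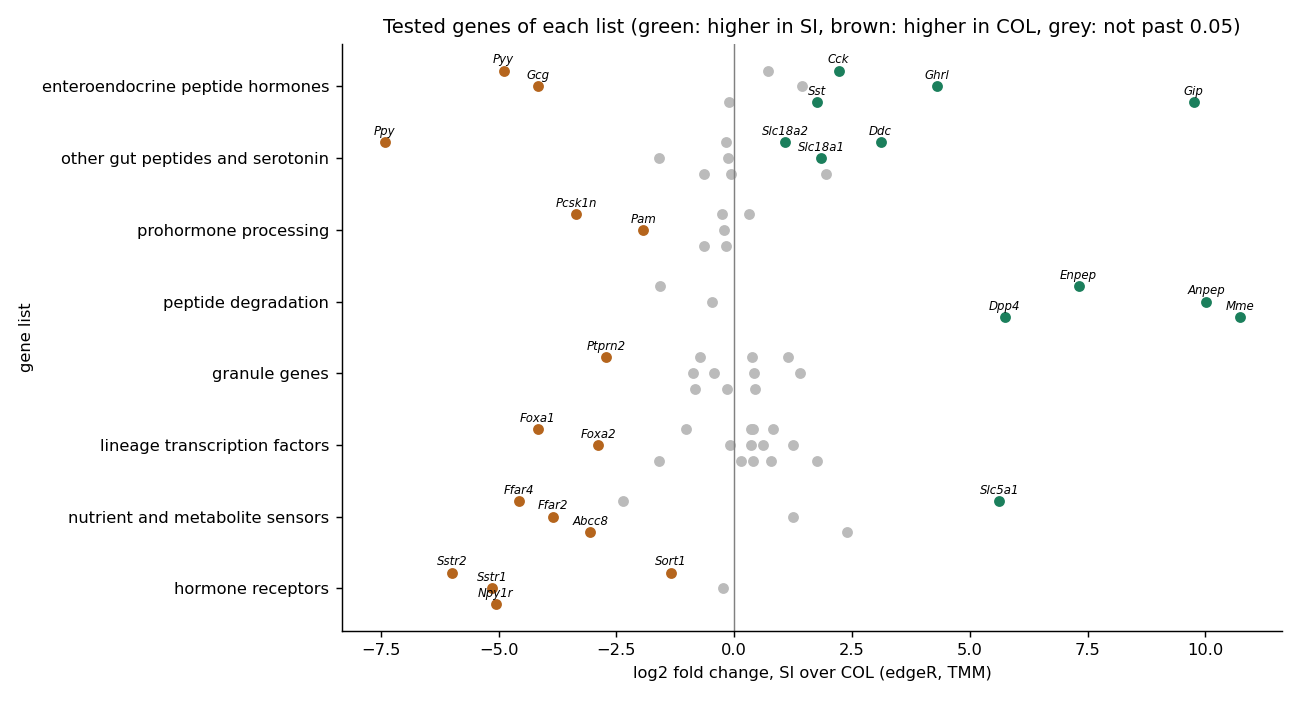
The horizontal axis gives the log2 fold change of SI over COL for the tested genes of 8 lists (rows), in green where higher in SI, in brown where higher in COL and in grey where not past 0.05; *Insl5*, at 0 in SI, is left out. Hormones spread to both sides, granule genes and lineage factors stayed mostly in grey around 0, and peptide-degrading enzymes lay to the right.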

How the data were processed

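RNA-Seq reads of 8 crypt libraries were trimmed by the authors with Trimmomatic (0.36), aligned to mm10 and counted per gene with STAR (2.5.2b), with versions from the submitters' processing notes, which also list mm9. The authors deposited the counts unnormalized, as whole numbers per Ensembl gene. The annotation release, and whether the strand was used, are not given in the sources used here. Symbols, positions and exon lengths were those of GENCODE vM21 on GRCm38, which is mm10, and 45143 of 45706 identifiers matched. Promoter sequences were those of RefSeq (GRCm38.p6).

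SI was compared with COL in R 4.3.3 by edgeR 4.0.16 (glmQLFit, glmQLFTest) with TMM, on the 14491 genes kept by filterByExpr (about 10 counts in at least 4 libraries, 15 in all), with Benjamini-Hochberg adjustment and a threshold of 0.05. The study names limma for this comparison without settings, so limma 3.58.1 (voom) and DESeq2 1.42.0 were alternatives. Standard errors were computed from the F statistic and the coefficient without shrinkage. None was formed for *Insl5*. CPM per kilobase used the union of exons. Samples were grouped by their titles, and the donor numbers pair SI with COL libraries of the same mouse. The same-mouse correlations of deviations from the tissue means were -0.24, 0.39, -0.08 and 0.33. Libraries of one tissue differed beyond counting noise (chi-square per gene of 91.7 or more for each pair), so none is a repeat of another.

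The hormone genes and the gene lists were chosen with earlier results of these data known. The genes named are the hormone genes, those of the lists, and the 3 genes most correlated with each hormone gene, which for *Sst* are not reported here. Other alternatives were the donor block, library-size scaling, scaling to granule genes, 2 other filters, a test against a log2 change of 1, the mitochondrial share as a covariate, leaving out each library, and, added after the data were seen, each level of mitochondrial share alone. Lists of markers were examined without a test. The scripts were tested on simulated data before use. The precision is set by the differences among the 4 libraries of a tissue.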

Additional observations from a re-analysis of the deposited data

Results flagged for a closer look

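Among 141 groups of 4 libraries from the hormone genes and the tested genes of the lists, 14 held a library far from the other 3 by Dixon's criterion, where chance flags about 1 in 20. One concerned a hormone gene, *Cck*, with 1.35 CPM in COL1 against 0.311 to 0.348 CPM in COL2 to COL4. In SI1, *Scg5* (1.59 CPM) was high and *Cplx2* (0.951 CPM) was low. *Ppy* was flagged in SI1 on 2 counts (0.0906 CPM) beside 0 in SI2 to SI4, where the criterion flags any count above 0. In SI2, *Ptprn2* (3.38 CPM), *Pax6* (1.75 CPM), *Etv1* (2.36 CPM), *Piezo2* (1.87 CPM) and *Npy1r* (0.665 CPM) were high, and in SI4 *Sstr5* was high (2.88 CPM). In COL2, *Nmb* (1.12 CPM), *Ucn3* (0.932 CPM) and *Fap* (3.54 CPM) were high, and in COL1 *Foxa1* was high (26.9 CPM).

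*Tac1* was lower in SI than in COL in both female mice (mean difference of log2 CPM -0.72) and slightly higher in both male mice (0.16). This difference between female and male mice was not tested, and in SI sex cannot be told apart from mitochondrial share. *Tac1* had a log2 fold change of -1.17 in the libraries of low share alone and 0.70 in those of high share.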

How the results depend on the processing

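Over the 10 hormone genes and their alternatives, 177 of 197 log2 fold changes kept their direction and their side of the threshold, 11 kept the direction but were no longer past it, 4 came newly past it and 5 changed sign. The signs that changed were those of *Sct* with library-size scaling (-0.08) and of *Tac1* with scaling to granule genes (0.26), without SI1 (0.22), without COL3 (0.12) and in the libraries of high mitochondrial share (0.70), and none of these 5 was past the threshold. *Nts* was also past it without a filter (adjusted p = 0.00227 by edgeR), where 33110 genes entered the fit. The count of hormone genes higher in SI was 2 with library-size scaling, with at least 10 counts in every library (which left 7 of them tested), in a test against a 1-unit log2 change and in the libraries of high mitochondrial share. That higher in COL stayed within 1.5 times of 3. *Tac1* ranged from -0.54 to 0.22 with one library left out. Over all genes, the test against a log2 change of 1 gave 2072 calls and the high-share libraries alone gave 2264. Library-size scaling gave 1115 genes higher in SI and 4788 higher in COL, against 2253 and 1863 with TMM. With one library left out at a time, 3167 to 4480 genes were called, with 3 or 4 hormone genes higher in SI and 3 higher in COL. *Gcg*, *Pyy*, *Ghrl*, *Gip* and *Insl5* were called in every alternative in which they were tested. The replicate block by donor mouse gave 4072 genes and changed no call among the hormone genes. The causes were not tested. At this depth, *Cck* in COL and *Gip* in COL rest on few counts.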

Other observations

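Other genes of the SI libraries varied along with the hormones. *Pdx1*, a homeobox factor of the proximal SI, had 4.53 and 6.39 CPM in SI2 and SI3 and 0.227 and 0.0916 CPM in SI1 and SI4, the reverse of *Nts* and *Pyy*. *Cartpt*, the gene of a neuropeptide, had 1.09 and 0.641 CPM in SI1 and SI4 and 0.121 and 0.0507 CPM in SI2 and SI3. *Nt5e*, listed with the villus enterocyte markers, had 329 and 63.1 CPM in SI1 and SI4 and 13.7 and 12.3 CPM in SI2 and SI3. In COL, *Nt5e* was highest in COL2, at 72.8 CPM. These genes were picked for mention after their values were seen.

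Among 11967 genes, those whose deviations from the tissue mean were most like those of *Nts* over the 8 libraries were *Ptdss1*, *Tti2* and *Anxa4* (Pearson's r from 0.983 to 0.988). For *Pyy* they were *Mboat1*, *Rab3gap1* and *Mcmbp* (0.973 to 0.98), and for *Sct* they were *Gchfr*, *Gpt* and *Ccl24* (0.99 to 0.991). *Larp4*, *Rbm3* and *Lbr* were nearest to *Gcg* (0.986), *Ciart*, *Usp32* and *Stard5* to *Tac1* (0.968 to 0.982), and *Icosl*, *Apoc2* and *Rab33b* to *Gip* (0.96 to 0.967). For *Ghrl* they were *Pcgf3*, *Ccnyl1* and *Ano1* (0.933 to 0.974), for *Cck* *Slc25a1*, *Vcp-rs* and *Tomm70a* (0.943 to 0.972), and for *Insl5* *Pcmtd2*, *Gm10499* and *Akr1b7* (0.939 to 0.946), where *Insl5*, at 0 in SI, varied among the 4 COL libraries alone. *Mboat1* was also higher in COL (log2 fold change -6.01, adjusted p = 4.91e-05 by edgeR), at 70.2 to 181 CPM against 0.608 to 3.71 CPM in SI. With 8 libraries and so many genes compared, values of this size are a description of these libraries.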
